A study of Schizosaccharomyces pombe with 10 samples.

Results

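The 6 genes described here are 5 ura genes, whose products make pyrimidine nucleotides in fission yeast, and apt1, whose product recycles adenine. They were taken by their identifiers in the count table: ura1 (SPAC22G7.06c), ura2 (SPAC16.03c), ura3 (SPAC57A10.12c), ura5 (SPBC725.15), ura7 (SPAC10F6.03c, called cts1 in RefSeq) and apt1 (SPAC23A1.03). All 6 were found among the 6661 features of the table, and all 6 were among the 5734 features that passed a filter on low counts. The libraries are RNA-seq of total RNA from Schizosaccharomyces pombe strain PT286, the strain of every group, grown at 30 °C in YES, a rich yeast extract medium, for 16 h. Cells were then harvested untreated, or after 8 h with 20 µM camptothecin, which traps topoisomerase I on DNA, 10 mM hydroxyurea, which inhibits ribonucleotide reductase, 0.02 % methyl methanesulfonate (MMS), which alkylates DNA, or 5 µg/mL phleomycin, which breaks DNA strands. The labels give a change of medium at the start of treatment, do not say whether untreated cells were held for the same time, and give no genotype beyond the strain name. Each of the 5 groups had 2 libraries, 10 in all, and no source says that the 2 came from separate cultures, so p-values reflect only how far these libraries differ, a spread that may be technical. The untreated libraries carry WT in their titles.

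Cells build pyrimidines on a ring that is made before the sugar is added. Ura1 makes carbamoyl phosphate and joins it to aspartate, Ura2 closes the ring, Ura3 oxidises it to orotate on the mitochondrial membrane, Ura5 adds ribose phosphate, Ura4 removes a carboxyl group to give UMP, and Ura7 later converts UTP to CTP. Uracil and uridine from the medium can enter the same pool through permeases and salvage enzymes. Apt1 is not a pyrimidine enzyme: it couples adenine to phosphoribosyl pyrophosphate, the same ribose donor that Ura5 uses, to give AMP.

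Levels are CPM, counts divided by the library's total and given per 1e6, with totals (37301356 to 48598533 counts) corrected by TMM factors, and are compared here for 1 gene across groups, not between genes. "Fell" and "rose" are used of a gene whose Benjamini-Hochberg adjusted p was under 0.05 in edgeR's quasi-likelihood test over all tested features. Log2 fold changes are treated over untreated ± SE. A fall in CPM is relative to the other RNAs of the library: fewer transcripts per cell cannot be told apart from more of other RNA.

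All 6 genes fell under all 4 agents, and in each case both treated libraries lay below both untreated ones. Changes of this kind were common among all features. The 6 genes were chosen with earlier results of these data known, so the shares of all features given next are a background, not a test. Of all tested features, 35.9 % fell under camptothecin, 38.8 % under hydroxyurea, 40.9 % under MMS and 40.7 % under phleomycin, while 35.2, 40.3, 39.5 and 42.2 % rose in the same order. Both treated libraries lay below both untreated ones for 42, 43.1, 44.8 and 44.5 %. In the same order of agents, the median log2 fold change of the 6 genes was -0.49, -0.39, -0.84 and -0.81, beside medians of 0.0042, 0.023, 0.0018 and 0.021 over all tested features. The hydroxyurea median of the 6 genes depended on the scaling: it was -0.21 with library totals alone, where that of all features was 0.21, and -0.18 under quantile normalization. The hydroxyurea falls of ura1 and ura7 were not kept under quantile normalization, as given with those genes. The log2 fold change of the adenine salvage gene apt1 was below those of the other 5 under every agent. Together the 6 genes took 0.413 and 0.411 % of all counts in untreated cells and 0.226 and 0.224 % with phleomycin. In between lay hydroxyurea at 0.356 and 0.354 %, camptothecin at 0.291 and 0.290 % and MMS at 0.240 and 0.238 %, so the 2 libraries of a group lay close together and no groups overlapped.

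**Figure D1:**
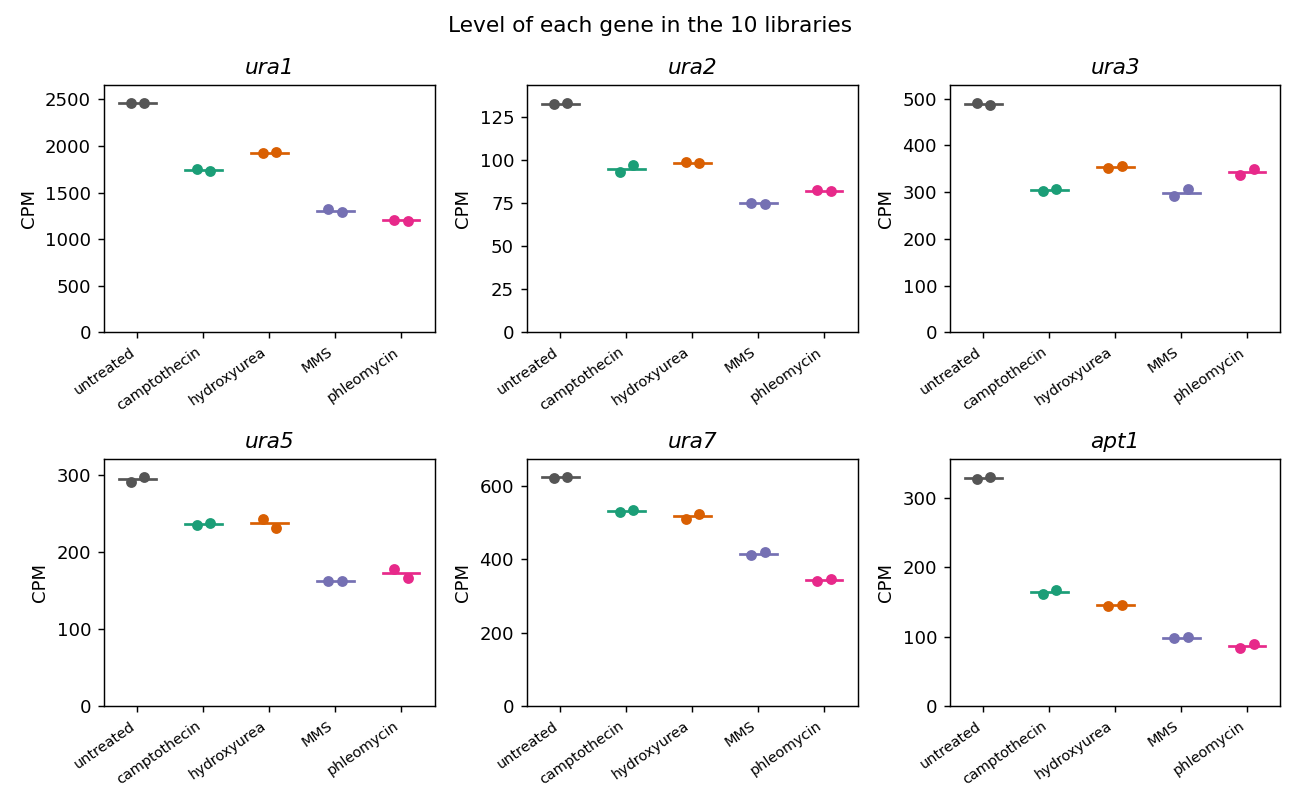
Level of each gene in CPM (vertical axis, from 0) in each library (points) of the 5 groups (horizontal axis), with lines at group means. The untreated libraries are the highest in all 6 panels, at 2459 and 2459 CPM for ura1 and 327 and 329.6 CPM for apt1, and the order of the treated groups differs between genes.

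**Figure D2:**
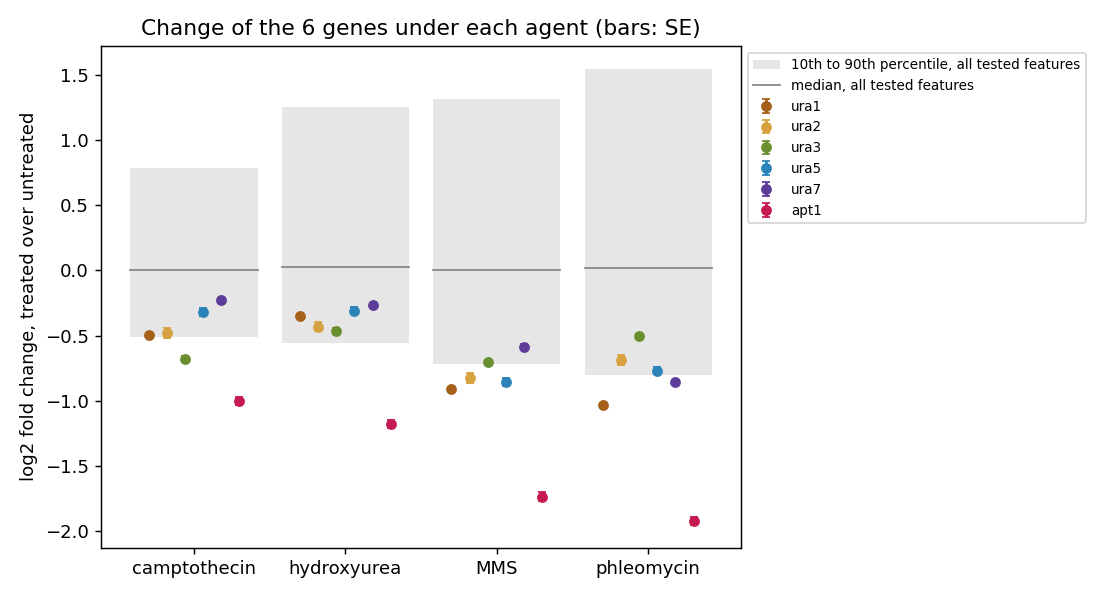
Log2 fold change, treated over untreated (vertical axis), of each gene under the 4 agents (horizontal axis), with bars of 1 SE. Grey boxes span the 10th to the 90th percentile of all 5734 tested features and grey lines their median; apt1 lies below the box under all 4 agents, at -1.0, -1.18, -1.73 and -1.92.

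The entry enzyme gene ura1 stood at 2459 and 2459 CPM in the untreated libraries. Hydroxyurea libraries had 1924 and 1931 CPM, camptothecin libraries 1749 and 1732 CPM, MMS libraries 1322 and 1293 CPM and phleomycin libraries 1212 and 1196 CPM. No 2 groups overlapped, and phleomycin libraries were the lowest, at 2.04-fold below untreated. The log2 fold change was -1.03 ± 0.016 with phleomycin (adjusted p = 1.93e-54, edgeR) and -0.91 ± 0.016 with MMS (adjusted p = 1.51e-51, edgeR). It was smaller with camptothecin (-0.50 ± 0.016) and with hydroxyurea (-0.35 ± 0.016). Its hydroxyurea fall depended on the scaling: under quantile normalization with limma the value was 0.11 (adjusted p = 3.85e-05), a rise, and the MMS value shrank to -0.42. Under scaling by library totals alone the hydroxyurea value was -0.17 (adjusted p = 1.54e-17, edgeR).

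The ring-closing enzyme gene ura2 stood at 133 and 133 CPM in untreated cells. Treated libraries lay between 74.9 CPM with MMS and 98.7 CPM with hydroxyurea, so none reached the untreated level. Its log2 fold change was -0.83 ± 0.038 with MMS (adjusted p = 6.62e-29, edgeR), -0.69 ± 0.038 with phleomycin, -0.48 ± 0.037 with camptothecin and -0.43 ± 0.037 with hydroxyurea. The hydroxyurea value was -0.25 with library totals alone and -0.31 under quantile normalization.

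The mitochondrial dihydroorotate dehydrogenase gene ura3 had 489.9 and 486 CPM in untreated cells, 303 and 307 CPM with camptothecin and 292 and 306 CPM with MMS. With hydroxyurea it had 351 and 357 CPM and with phleomycin 337 and 349 CPM. Its smaller falls came with hydroxyurea and phleomycin and its larger ones with camptothecin and MMS, whereas the other 4 ura genes had larger falls with both MMS and phleomycin than with camptothecin or hydroxyurea. The log2 fold change was -0.71 ± 0.023 with MMS, -0.68 ± 0.023 with camptothecin (adjusted p = 4.84e-36, edgeR), -0.51 ± 0.022 with phleomycin and -0.46 ± 0.022 with hydroxyurea. Under quantile normalization the last 2 were -0.33 and -0.24.

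The gene ura5, whose product attaches the ribose phosphate to orotate, had 291 and 297 CPM in untreated cells. Camptothecin libraries, at 234 and 237 CPM, and hydroxyurea libraries, at 242 and 231 CPM, overlapped each other. MMS libraries were lower at 163 and 162 CPM, as were phleomycin libraries at 178 and 166 CPM. Log2 fold changes were -0.32 ± 0.027, -0.31 ± 0.027, -0.86 ± 0.028 and -0.77 ± 0.028 in that order of agents, the MMS value with an adjusted p of 1.13e-36 by edgeR. The hydroxyurea value was -0.13 with library totals alone and -0.11 under quantile normalization.

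The CTP synthase gene ura7 had 621 and 623 CPM in untreated cells. Of the agents, phleomycin left it lowest, at 339 and 347 CPM, and MMS next, at 411 and 419 CPM. Hydroxyurea libraries (509 and 523 CPM) lay just below those of camptothecin (528 and 533 CPM), and no groups overlapped. It was the least changed of the 6 under camptothecin (-0.23 ± 0.020), hydroxyurea (-0.27 ± 0.020) and MMS (-0.58 ± 0.020), though under quantile normalization the MMS value of ura1 (-0.42) was nearer to 0 than that of ura7 (-0.52). With phleomycin its log2 fold change of -0.86 ± 0.020 (adjusted p = 8.29e-45, edgeR) was below those of ura2, ura3 and ura5; these differences between genes were not tested. Under quantile normalization its hydroxyurea change was -0.012 (adjusted p = 0.513 by limma) and no longer passed, and with library totals alone it was -0.086 (adjusted p = 3.70e-05, edgeR).

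The adenine phosphoribosyltransferase gene apt1 had 327 and 329.6 CPM in untreated cells. Camptothecin libraries had 161 and 167 CPM, hydroxyurea libraries 145 and 145 CPM, MMS libraries 98.3 and 99.2 CPM and phleomycin libraries 84.0 and 89.5 CPM. The 5 groups did not overlap, and the phleomycin libraries were the lowest. The fall was 2.01-fold with camptothecin (log2 -1.0 ± 0.030, adjusted p = 5.54e-39, edgeR), 2.27-fold with hydroxyurea (-1.18 ± 0.030), 3.33-fold with MMS (-1.73 ± 0.031) and 3.78-fold with phleomycin (-1.92 ± 0.031, adjusted p = 1.88e-53, edgeR).

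The fall of apt1 lay near the low end of all features. Counting apt1 itself, 99 of the 5734 tested features had a log2 fold change as low or lower under camptothecin, 42 under hydroxyurea, 47 under MMS and 30 under phleomycin. Falls of 2-fold or more that passed the threshold were made by 1.46, 1.15, 4.05 and 5.51 % of tested features in the same order. Among the 6 genes only apt1 reached 2-fold with camptothecin, hydroxyurea and MMS, and apt1 and ura1 did with phleomycin. Some of these lay close to the limit: apt1 with camptothecin was at -0.99 under quantile normalization and at -0.98 without camptothecin replicate 1 and -0.999 without untreated replicate 2, and apt1 with hydroxyurea at -0.996 with library totals alone. With phleomycin ura1 was at -0.95 with library totals alone and at -0.83 under quantile normalization, short of 2-fold in both. For ura1, 290 features were as low or lower under phleomycin, and for ura7 under camptothecin 1648 were. In RefSeq, apt1 overlaps the opposite-strand gene mnl1 over 15.1 % of its span. Since no source says that counting used the strand, the mnl1 values belong beside it: mnl1 had log2 fold changes of -0.059 ± 0.037, 0.34 ± 0.036, -0.16 ± 0.038 and -0.14 ± 0.037 in the same order of agents, none near those of apt1. The 5 ura genes are overlapped by no other feature of the table, and none of the 6 has a near-identical copy in the genome. RefSeq also has overlapping features that are not in the table, 2 for ura1 and 1 each for ura3, ura5 and apt1. Whether these bear on the counts was not tested.

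The ratio of 2 genes' counts inside 1 library does not change when each library is scaled by 1 factor. Quantile normalization is not such a scaling and can change it. There ura7 stood at -0.012 and ura1 at 0.11 with hydroxyurea, and at -0.52 and -0.42 with MMS, so ura7 lay below ura1. The ratios that follow are of raw counts. Relative to ura1, apt1 was lower in all 8 treated libraries than in both untreated ones. Its log2 ratio to ura1 was -2.91 and -2.90 untreated. It lay between -3.44 and -3.37 with camptothecin and between -3.85 and -3.70 in the libraries of the 3 other agents. The ratio of ura7 to ura1 was instead higher in all 8 treated libraries, by 0.065 to 0.36 over the untreated mean on the log2 scale. The ura3 ratio went both ways: below the untreated mean by -0.19 and -0.16 with camptothecin and by -0.12 and -0.10 with hydroxyurea, and above it by 0.15 and 0.26 with MMS and by 0.49 and 0.56 with phleomycin. For ura2, phleomycin libraries stood at 0.34 and 0.35 above the untreated mean, while the other treated libraries were within -0.087 and 0.10. These ratios are given as a description, without a test.

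**Figure D3:**
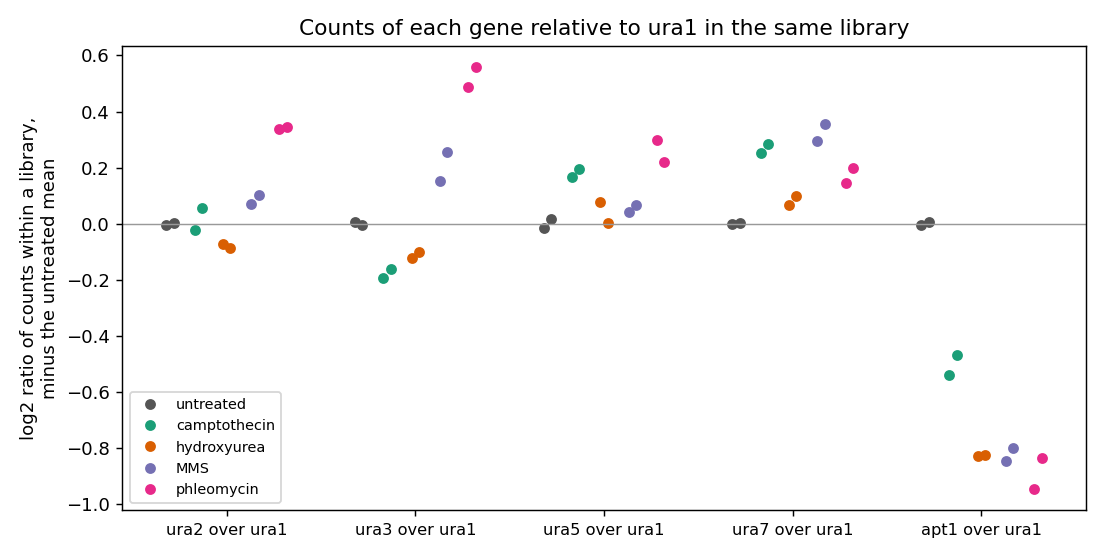
Log2 ratio of the counts of each gene to those of ura1 in the same library, minus the untreated mean (vertical axis), for 5 genes (horizontal axis); points are libraries, coloured by group. The apt1 ratio lies between -0.95 and -0.47 in the 8 treated libraries, and the ura3 ratio lies below 0 with camptothecin and hydroxyurea and above 0 with MMS and phleomycin.

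The agents were also set against each other in the same fit. Between camptothecin and hydroxyurea 3 of the 6 genes passed the threshold, as did 72.6 % of all features. For camptothecin against MMS the count was 5 (76.9 % of features) and against phleomycin 6 (80 %). For hydroxyurea it was 6 against MMS (73.6 %) and 5 against phleomycin (71.2 %), and between MMS and phleomycin it was 6 (72 %). These shares show that a difference between agents was the usual case.

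The order of levels was not the same for each gene. From high to low, ura1 ran untreated, hydroxyurea, camptothecin, MMS, phleomycin, and every step passed: the camptothecin level was -0.15 ± 0.016 against hydroxyurea (adjusted p = 1.56e-12, edgeR) and the MMS level 0.12 ± 0.016 against phleomycin (adjusted p = 1.82e-09, edgeR), both log2 differences. These were -0.34 and 0.12 with library totals alone, and -0.49 and 0.41 under quantile normalization. The step from camptothecin to MMS, 0.41 ± 0.016, was 0.034 under quantile normalization (adjusted p = 0.113 by limma). For apt1 the order was untreated, camptothecin, hydroxyurea, MMS, phleomycin. The step from camptothecin to hydroxyurea (0.18 ± 0.031, adjusted p = 9.54e-07, edgeR) did not pass with library totals alone (-0.018) or with quantile normalization (0.0076). The step from MMS to phleomycin was 0.19 ± 0.034 (adjusted p = 2.25e-06, edgeR), or 0.091 under quantile normalization (adjusted p = 0.0387 by limma).

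For ura2 and ura5 the lowest level was that of MMS, not phleomycin. The MMS level of ura2 was -0.14 ± 0.040 on the log2 scale against phleomycin (adjusted p = 0.00153, edgeR). For ura5 the difference was -0.087 ± 0.029 (adjusted p = 0.00681, edgeR), and without phleomycin replicate 1 it was -0.024 and did not pass (adjusted p = 0.546). Under quantile normalization both differences were -0.23. Camptothecin and hydroxyurea were not told apart for ura2 (log2 difference -0.052, 95 % interval -0.13 to 0.024), for ura5 (-0.0084, 95 % interval -0.064 to 0.047) or for ura7 (0.038, 95 % interval -0.0011 to 0.078). Those 3 differences turned into calls under other scalings, at -0.25, -0.20 and -0.16 with library totals alone, where the median of all features was itself at -0.20. Under quantile normalization, where that median was 0.014, they were -0.11, -0.18 and -0.16 and passed as well. With RLE factors the ura7 difference passed in the other direction (0.056), so its sign depends on the scaling. For ura3, hydroxyurea and phleomycin were not told apart (0.044, 95 % interval -0.0015 to 0.089). That difference passed at 0.14 with library totals alone and at 0.082 under quantile normalization (adjusted p = 0.00847 by limma). Camptothecin and MMS were not told apart for ura3 either (0.028, 95 % interval -0.019 to 0.075). With library totals alone, however, this second difference passed in the other direction (-0.070, adjusted p = 0.00428, edgeR). The hydroxyurea level of ura3 was above that of MMS by 0.24 ± 0.023 (adjusted p = 1.21e-14, edgeR), or by 0.40 under quantile normalization.

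The missing step of the chain is ura4 (SPCC330.05c), the gene of orotidine monophosphate decarboxylase and a common selection marker in this yeast. It had 0 counts in all 10 libraries, which allows at most 0.0617 to 0.0804 CPM of the unscaled total in a library, for counting error only. The labels do not give a ura4 allele for PT286. The UMP kinase gene ura6 had 7 counts over all libraries. Neither could be compared between groups.

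Of 17 other pyrimidine genes listed (kinases, salvage enzymes, permeases and the dUTP and thymidylate steps), 15 had a feature in the table and 11 were tested. With camptothecin 2 rose, 5 fell and 4 did not pass, with hydroxyurea 9 fell and 2 did not pass, with MMS 1 rose, 9 fell and 1 did not pass, and with phleomycin 2 rose and 9 fell. Over all features, 35.9 to 40.9 % fell and 35.2 to 42.2 % rose, so the 5 of 11 that fell with camptothecin lie near the share of all features. Their medians, on the log2 scale, were -0.051, -0.24, -0.28 and -0.50. With library totals alone the counts under hydroxyurea were 3 up and 6 down, with a median of -0.053. Under quantile normalization they were 2 up and 6 down, and the camptothecin counts were 0 up and 7 down with library totals alone, 0 up and 4 down with DESeq2, and 3 up and 4 down under quantile normalization. The phleomycin median was -0.27 under quantile normalization.

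The uracil-regulated gene urg1, whose product RefSeq names as a GTP cyclohydrolase II, had the largest fall of the list. It went from 271 ± 0.366 to 109 ± 1.83 CPM with phleomycin (SD, n = 2; log2 -1.31 ± 0.028, adjusted p = 8.43e-47, edgeR) and fell with hydroxyurea (-0.67 ± 0.027). Its neighbours urg2 and urg3 fell with MMS (-0.50 ± 0.029 and -0.45 ± 0.026) and phleomycin (-0.51 ± 0.029 and -0.50 ± 0.025). With hydroxyurea they fell by less (-0.22 ± 0.028 and -0.24 ± 0.025), and neither passed under quantile normalization there. Their phleomycin values under quantile normalization were -0.27 and -0.30. The uracil permease gene fur4 (-0.44 ± 0.058) and the uridine kinase gene urk1 (-0.40 ± 0.038) fell with camptothecin, as did the deoxycytidylate deaminase gene dcd1 (-0.24 ± 0.049), overlapped on 53.4 % of its span, and urg3 (-0.070 ± 0.025), the last not under quantile normalization. The dihydrofolate reductase gene dfr1 fell with hydroxyurea (-0.33 ± 0.021, or -0.10 under quantile normalization) and MMS (-0.28 ± 0.021). Against this trend, SPAC15E1.04, named by RefSeq as a thymidylate synthase, rose with MMS (0.95 ± 0.033, adjusted p = 1.24e-35, edgeR), and the nucleoside diphosphate kinase gene ndk1 rose with phleomycin (0.92 ± 0.039). The ndk1 value is uncertain, because 83.3 % of its span is overlapped by an opposite-strand feature.

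Around apt1, 14 other genes of purine salvage and interconversion were listed, of which 13 had a feature and 10 were tested. They went both ways: camptothecin raised 4 and lowered 5, hydroxyurea raised 6 and lowered 4, MMS raised 4 and lowered 4, and phleomycin raised 7 and lowered 3. Beside the 35.2 to 42.2 % of all features that rose and the 35.9 to 40.9 % that fell, the camptothecin and MMS counts are near those of any features. Their medians were -0.16, 0.14, -0.0061 and 0.60. With library totals alone the hydroxyurea counts were 7 up and 0 down, with a median of 0.32. Under quantile normalization the hydroxyurea counts were 8 up and 0 down, the MMS counts 6 and 4 with a median of 0.10, and the phleomycin counts 9 and 1.

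The adenine deaminase gene dea2, whose product uses the same base as Apt1, rose with camptothecin (0.88 ± 0.029, adjusted p = 2.26e-36, edgeR) and hydroxyurea (0.97 ± 0.029) and fell with MMS (-1.0 ± 0.033). Its mean level went from 143 CPM in untreated cells to 263 and 279.6 CPM with the former pair and to 71.6 CPM with MMS, and it also rose with phleomycin (0.62 ± 0.029), to 219 CPM. So dea2 rose where apt1 fell under camptothecin, hydroxyurea and phleomycin, and both fell under MMS. Not all of the list went against apt1: hpt1, a xanthine phosphoribosyltransferase gene in RefSeq, had a mean of 162 CPM in untreated cells. Its means with camptothecin, hydroxyurea, MMS and phleomycin were each lower, at 127, 139, 142 and 153 CPM. With hydroxyurea, however, no tested gene of this list, hpt1 included, fell with library totals alone or under quantile normalization. With phleomycin only 1 of the 10 fell under quantile normalization. The adenosine kinase gene ado1 fell with camptothecin (-0.31 ± 0.018) and rose with hydroxyurea (0.072 ± 0.017, or 0.34 under quantile normalization) and phleomycin (0.48 ± 0.017). The IMP dehydrogenase gene gua1 rose with hydroxyurea (0.76 ± 0.017), MMS (0.32 ± 0.017, or 0.56 under quantile normalization) and phleomycin (0.82 ± 0.017). With camptothecin gua1 rose as well (0.26, adjusted p = 1.37e-21, edgeR). The GMP synthase gene gua2, next to it in the pathway, fell with camptothecin (-0.99 ± 0.022), MMS (-0.53 ± 0.022) and phleomycin (-0.62 ± 0.022). The mean level of gua2 was also lower with hydroxyurea, at 475 CPM against 532 CPM untreated. With that agent gua2, like hpt1, did not fall with library totals alone or under quantile normalization. The gene ade10, of the last steps to IMP, rose with camptothecin (0.34 ± 0.019), hydroxyurea (0.63 ± 0.019) and phleomycin (0.75 ± 0.019). Its mean level was also higher with MMS, at 434 CPM against 395 CPM untreated. The adenylosuccinate synthetase gene ade2 fell with MMS (-0.59 ± 0.017, or -0.39 under quantile normalization) and rose with phleomycin (0.59 ± 0.016); an opposite-strand feature overlaps 34.2 % of it. The adenosine deaminase gene ada1 rose with MMS (0.38 ± 0.022) and fell with camptothecin (-0.30 ± 0.023) and phleomycin (-0.14 ± 0.023, or 0.048, a rise, under quantile normalization). It also fell with hydroxyurea (-0.21 ± 0.023), but not under library totals alone (-0.030, adjusted p = 0.233, edgeR) or quantile normalization.

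The arginine branch shares carbamoyl phosphate with ura1 as a substrate, made by its own synthase. All 5 genes listed were tested. With camptothecin 4 fell and 1 did not pass (median -0.19), with hydroxyurea and with MMS 4 rose and 1 did not pass (0.21 and 0.18), and with phleomycin 5 rose (0.75). The share of all features that fell with camptothecin was 35.9 %. The shares that rose were 40.3 % with hydroxyurea, 39.5 % with MMS and 42.2 % with phleomycin. With library totals alone 5 of 5 rose with hydroxyurea (median 0.39) and with MMS (0.27), and with DESeq2 3 rose under each. Both carbamoyl phosphate synthase genes, arg5 (-0.60 ± 0.021) and arg4 (-0.19 ± 0.072), fell with camptothecin, as did arg12 (-0.33 ± 0.019) and arg7 (-0.13 ± 0.055). The argininosuccinate synthase gene arg12 rose from 437 ± 2.70 to 1003 ± 6.45 CPM with phleomycin (SD, n = 2; log2 1.20 ± 0.018, adjusted p = 7.64e-55, edgeR). Also higher with phleomycin were the ornithine carbamoyltransferase gene arg3 (0.98 ± 0.027), arg5 (0.31 ± 0.020) and the argininosuccinate lyase gene arg7 (0.75 ± 0.052). In the same libraries ura1 fell, as given above (-1.03 ± 0.016). The rise of arg12 with hydroxyurea (0.048 ± 0.019) did not pass with DESeq2 (adjusted p = 0.231). An opposite-strand feature overlaps 13.7 % of arg12, and arg4 is wholly overlapped by opposite-strand features. Under quantile normalization arg4 did not pass with hydroxyurea, MMS or phleomycin, which left 3 rises with MMS and 4 with phleomycin.

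**Figure D4:**
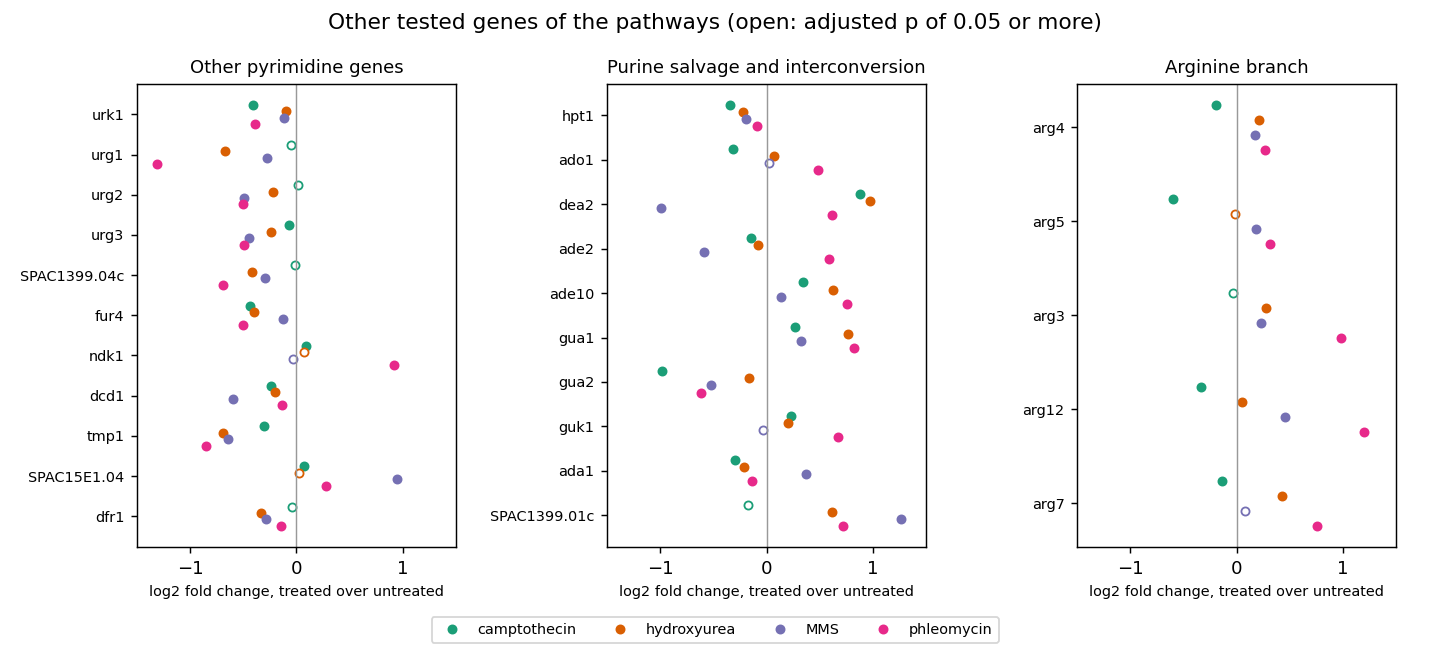
Log2 fold change, treated over untreated (horizontal axis), of each tested gene (vertical axis) of 3 lists, with points coloured by agent and filled where the adjusted p was under 0.05. Most pyrimidine genes lie left of 0, purine genes lie on both sides, and the 5 arginine genes lie right of 0 with phleomycin, up to 1.20 for arg12.

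The likeness of 2 genes was measured as the root mean square difference between their 4 log2 fold changes against untreated cells, which share the same controls. No member was among the 3 nearest protein-coding genes of another. The nearest to ura1 were spb70, of the DNA polymerase alpha B subunit (0.063), tim22, of a mitochondrial import complex (0.072), and gih35, of an RNA helicase (0.097). The nearest to ura2 were slm9, of a histone chaperone (0.054), the vigilin gene vgl1 (0.059) and cbp1 (0.076), and cbp1 was also near ura5 (0.052), after kap111, a karyopherin gene (0.042), and before rpb8, of an RNA polymerase subunit (0.064). The nearest to ura3 were zuo1 (0.051), nrf1 (0.083) and tsr2, of ribosomal RNA processing (0.092). The closest matches of all were those of ura7, syo2 (0.024) and pwp2, of the U3 snoRNP (0.031), followed by esc1 (0.053). The pattern of apt1 had only looser matches: the chitin synthase regulatory gene cfh4 (0.17), the cell wall glucosidase gene adg3 (0.18) and his1 (0.23), whose product also uses phosphoribosyl pyrophosphate. These distances also depend on how many features changed by as much. Few fell as far as apt1, so its looser matches say little about its pattern.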

How the data were processed

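The authors deposited 1 table of raw read counts, 1 column per library, without scaling. The submitters' processing notes name HISAT2 and StringTie. Tool versions, build, annotation and strand setting were not given in the sources used here. Symbols, products and overlaps come from RefSeq ASM294v3, by locus tag for 6540 of 6661 IDs and by synonym for 11. Since the table's build is unknown, no coordinate or sequence is printed. A search with blastn found no copy of a named list gene or member at 95 % identity over 50 % of its span.

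The quasi-likelihood test of edgeR 4.0.16 in R 4.3.3 was run on the counts after filterByExpr and TMM scaling, with all 5 groups in 1 model (5 residual degrees of freedom). P-values are two-sided and adjusted by Benjamini-Hochberg over 5734 features in each of 4 comparisons with untreated cells and 6 between agents, at a threshold of 0.05. SE is the absolute log2 fold change over the square root of F. The fit was tested on simulated data. CPM divide by the total over tested features times the TMM factor (0.944 to 1.09). Between replicates, chi-square per feature was 3.34 to 3.71, above the value of 1 that counting noise gives. Intervals and limits from counts cover counting error only, as PCR copies cannot be told from separate molecules.

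The alternatives were library totals, RLE factors, quantile normalization with limma 3.58.1, DESeq2 1.42.0, no filter, only the 2 groups compared, each library left out and a replicate block. Named from each list were up to 4 tested genes with the smallest adjusted p in a comparison with untreated cells, and as alike the 3 nearest protein-coding genes with a symbol. A listed gene may also have changed under an agent that is not named with it. Untested genes, further comparisons of dea2, ado1, ada1 and gua1, and the mean levels of hpt1, gua2 and ade10 were added after their values were seen. Members and lists were chosen with earlier results of these data known. The list names fui1, fcy1 and pnp1 matched no feature.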

Additional observations from a re-analysis of the deposited data

How the results depend on the processing

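Against untreated cells, 262 of 264 recomputed values of the 6 genes kept their direction and their side of the threshold. The exceptions came under quantile normalization with hydroxyurea, where ura7 (-0.012) did not pass and ura1 turned to 0.11, so that 1 of the 6 genes was higher; the cause was not tested. Between agents 377 of 396 values were kept. With library totals alone, camptothecin against hydroxyurea had 1190 features higher and 3171 lower (2073 and 2091 with TMM), 0 of the 6 genes higher and 5 lower, ura7 at -0.16 and apt1 at -0.018, while camptothecin against MMS had 1 of the 6 lower, ura3 at -0.070. Under quantile normalization camptothecin against hydroxyurea again had 0 higher and 5 lower, with ura7 at -0.16. With RLE factors, DESeq2 or no filter 2 were higher; with single libraries left out, 1 to 2. Without hydroxyurea replicate 2, ura7 passed there (0.057, adjusted p = 0.0304 by edgeR). For ura3, camptothecin against MMS passed without MMS replicate 2 (0.064) and hydroxyurea against phleomycin without phleomycin replicate 2 (0.080). Library totals moved the median of all features by hydroxyurea from 0.023 to 0.21 and the share of calls that were higher from 50.9 to 67.7 %. That share went from 49.8 to 27.3 % for camptothecin against hydroxyurea, and from 53.2 to 65 % for hydroxyurea against phleomycin. A replicate block kept all 24 and 36 values (apt1 with phleomycin, -1.92). The labels do not say that the replicate numbers pair libraries, and replicate differences of the groups correlated by only -0.0242 to 0.0376. With 2 libraries a group, the spread within a group rests on a variance pooled over all 5 groups; leaving out 1 library assumes that the lone one varies like the others.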

Other observations

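Several other genes of these pathways had almost no counts and could not be compared. Over all 10 libraries the UMP kinase gene ura6 had 7 counts, the cytidine deaminase gene cdd1 had 3 and the dUTP hydrolase gene dut1 had 4. On the purine side, the guanine deaminase gene gud1 had 16, the adenylate kinase gene adk1 31 and the adenylosuccinate lyase gene ade8 35. In the reference annotation cdd1, dut1, gud1, adk1 and ade8 are covered over 100 % of their span by other features of the table, while ura6 and ura4, which had 0 counts, are covered over 0 %. Whether the overlap bears on these counts was not tested, and they are not used as levels.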
